A study of Mus musculus with 16 samples.

Results

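The 36 genes described here are those by which brain endothelial cells are recognised and through which they form the blood-brain barrier. They are a list of named genes, drawn up with earlier results of these data known, and were sorted by role into 19 endothelial identity genes, 6 junction genes and 11 transport genes. Each symbol matched 1 row of the 49671 gene rows of the count table through its Ensembl identifier, and all 36 passed the filter on low counts. The lowest count of any of them in any library was 10, for Icam2.

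Brain capillaries are lined by endothelial cells that are sealed to each other by tight and adherens junctions, carry little vesicular traffic and rely on transporters to move glucose, amino acids and lactate into the brain. Receptors of the VEGF and angiopoietin families keep these cells alive and quiescent, and efflux pumps of the ABC family return lipophilic compounds to the blood. In tauopathy models the hippocampal vessels have been studied for changes in density and in barrier properties, and the series asks about p16-expressing microglia and endothelial cells in such a model.

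Total RNA of the whole hippocampus of female mice aged 8 months was sequenced in 16 libraries, 4 in each of 4 genotype groups. WT mice carried neither modification, p16KO mice lacked p16, PS19 mice carried the PS19 tau transgene with p16 intact, and PS19_p16KO mice combined the transgene with the p16 knockout. PS19 is a human mutant tau transgene driven by the mouse prion promoter, which is active mainly in neurons. No treatment is named, with the strain, the p16 allele and the cells in which it is inactivated not given in the sources used here. The labels name replicates but no animals, so the p-values measure only the spread between these libraries, which may be technical. Libraries are named below by group and replicate number.

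Gene counts per library ran from 18485552 to 22311322. Levels are CPM, the count of a gene divided by all gene counts of its library and multiplied by 1000000. Counts of Cdkn2a, the gene of p16, totalled 8 in WT, 3 in p16KO, 18 in PS19 and 2 in PS19_p16KO libraries, too few to test. The defining markers of the other hippocampal cells were present: of 14 microglial and macrophage genes, 11 rose in PS19 against WT and 8 fell in PS19_p16KO against PS19 (edgeR, adjusted p under 0.05). Their summed level was 373 to 424 CPM in WT, 411 to 496 in p16KO, 534 to 1128 in PS19 and 443 to 496 in PS19_p16KO. Of 12 astrocyte genes, all had a positive fold change in PS19 against WT, 8 of them with an unadjusted p under 0.05, and Gfap was called there at 1.84 on the log2 scale. Gfap and Slc1a2 were called lower in PS19_p16KO against PS19. Summed astrocyte levels were 5783 to 5957 CPM in WT, 5301 to 6208 in p16KO, 6490 to 9228 in PS19 and 5099 to 5969 in PS19_p16KO. All 12 oligodendrocyte genes had positive fold changes in PS19 against WT, with a median of 0.33 and 9 at an unadjusted p under 0.05, and in p16KO against WT, with a median of 0.30 and 8 such genes, none of them called. Their sums were 2540 to 3724, 3334 to 3784, 3223 to 4450 and 3303 to 4166 CPM in the same order of groups. The shares over all genes tested at an unadjusted p under 0.05 were 9.57% in PS19 against WT and 3.99% in p16KO against WT. At an edgeR adjusted p under 0.05 the shares were 1.61% in PS19 against WT and 0.825% in PS19_p16KO against PS19. The part of these cells in the results below was not tested. Red cell RNA was scarce, with a summed level of 5 genes between 0.899 and 18.3 CPM.

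WT library 1, p16KO library 4 and PS19_p16KO library 3 stood apart in RNA of the choroid plexus, the secretory epithelium of the ventricles. The summed level of 15 choroid plexus genes was 1735, 6014 and 9465 CPM in them, against 193 to 484 CPM in the other 13 libraries. Results for the endothelial and barrier genes that rest on these libraries are given with and without them.

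Levels within the set were compared per kilobase of exon. They ran from 0.479 CPM per kb for Emcn, which encodes the endothelial sialomucin endomucin, to 205 for Bsg, which encodes basigin, the partner protein of lactate transporters. Transport genes held the top of the order, with Slc2a1, the glucose transporter GLUT1, at 28.3, the phospholipid transfer protein gene Pltp at 23.6 and the large neutral amino acid transporter gene Slc7a5 at 20.2 CPM per kb. The junction gene Cldn5, which encodes the main claudin of the barrier, stood among them at 21.7, and the scaffold gene Tjp1, which encodes ZO-1, at 13.0. The highest identity gene was Ly6c1 at 8.31 CPM per kb, and 4 identity genes lay at or below 0.857: Robo4, Sox17, Icam2 and Emcn. These levels are averages over whole tissue, and Bsg, Slc16a1, Slc7a1, Slc7a5, Tjp1 and Pltp are made by other brain cells besides endothelium. In bulk RNA, fewer endothelial cells and less RNA per endothelial cell cannot be told apart.

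**Figure D1:**
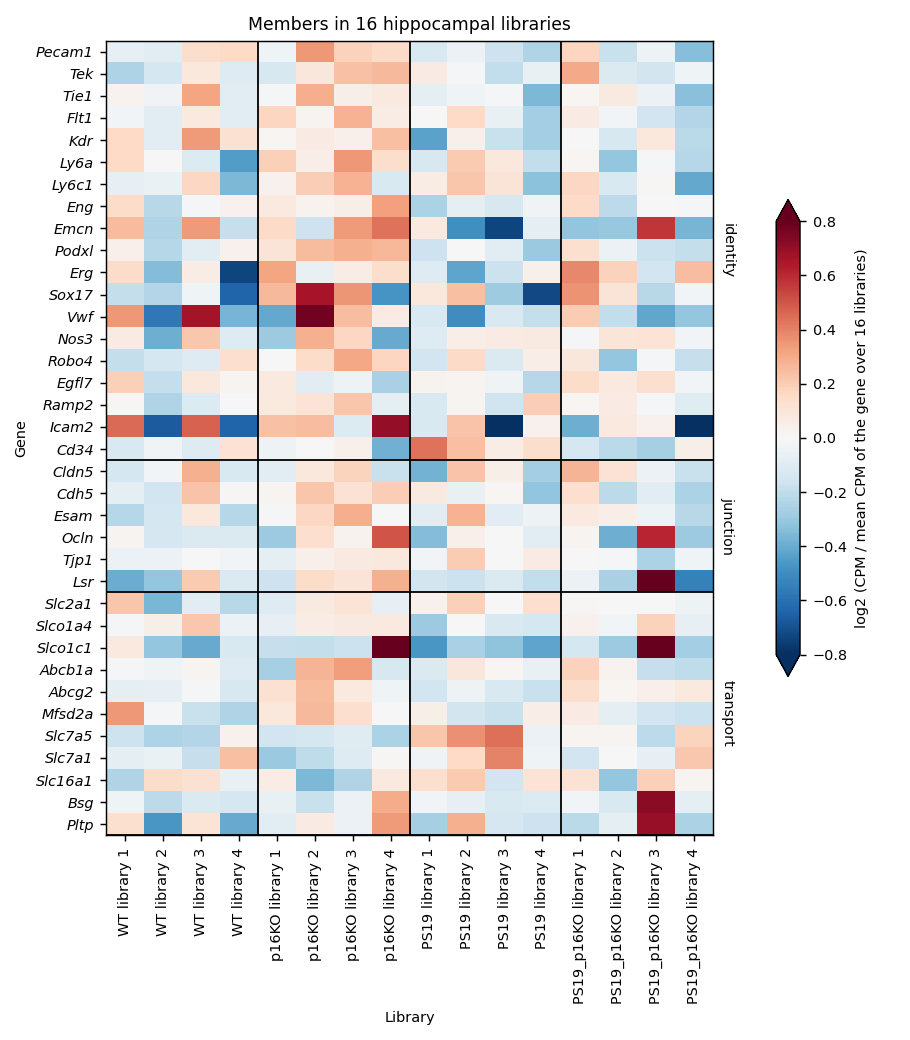
Heat map of the 36 genes, by role, in each of the 16 libraries. Colour is the log2 ratio of a gene's CPM to its mean over all libraries. Slco1c1 stands out in p16KO library 4 and PS19_p16KO library 3, and Slc7a5 is high in 3 of the 4 PS19 libraries.

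Differences between groups were small and 1 passed the test. Fold changes and p-values come from edgeR's quasi-likelihood test on all 16 libraries, and a gene is called where its p, adjusted over all 16372 genes tested by the Benjamini-Hochberg method, is under 0.05. In PS19 against WT, Slc7a5 rose and the other 35 genes were not called, where 1.61% of all genes tested were called and 1.56% were called higher. No gene of the 36 separated the PS19 from the WT libraries without overlap, against 4.99% of all genes tested. No endothelial or barrier gene was called in p16KO against WT, where 0.0% of all genes tested were, in PS19_p16KO against PS19, where 0.825% were, or in PS19_p16KO against p16KO, where 0.0183% were. None was called for the interaction of the genotypes (0.00611% of all genes tested), for the p16 knockout averaged over tau genotype (0.226%) or for the tau transgene averaged over p16 genotype (0.391%).

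At an unadjusted p under 0.05 the counts were 5 of 36 in PS19 against WT (9.57% of all genes tested), 3 in p16KO against WT (3.99%), 4 in PS19_p16KO against PS19 (8.59%) and 4 in PS19_p16KO against p16KO (3.65%). They were 2 for the interaction (5.44%), 5 for the averaged p16 knockout (7.96%) and 4 for the averaged transgene (10%). DESeq2 called 1 of the 36 in PS19 against WT, 1 in PS19_p16KO against PS19 and 1 for the averaged transgene, and none in the other comparisons. Over all 16372 genes tested, DESeq2 called 390, 272 and 179 in the same order. In the other comparisons DESeq2 called at most 107. limma-voom called none of the 36 in any of the 7. Over all genes tested it called 207 in PS19 against WT, 77 in PS19_p16KO against PS19 and at most 40 in each other comparison.

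The 95% intervals show what these libraries could resolve. In PS19 against WT the interval lay within 0.5 of zero on the log2 scale for 27 of the 36 genes and within 1 for all 36. The counts within 0.5 were 25 in p16KO against WT, 25 in PS19_p16KO against PS19 and 28 in PS19_p16KO against p16KO. Intervals reaching past 1 belonged to Slco1c1 in p16KO against WT and in PS19_p16KO against PS19, and to Icam2 and Vwf in PS19_p16KO against p16KO.

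**Figure D2:**
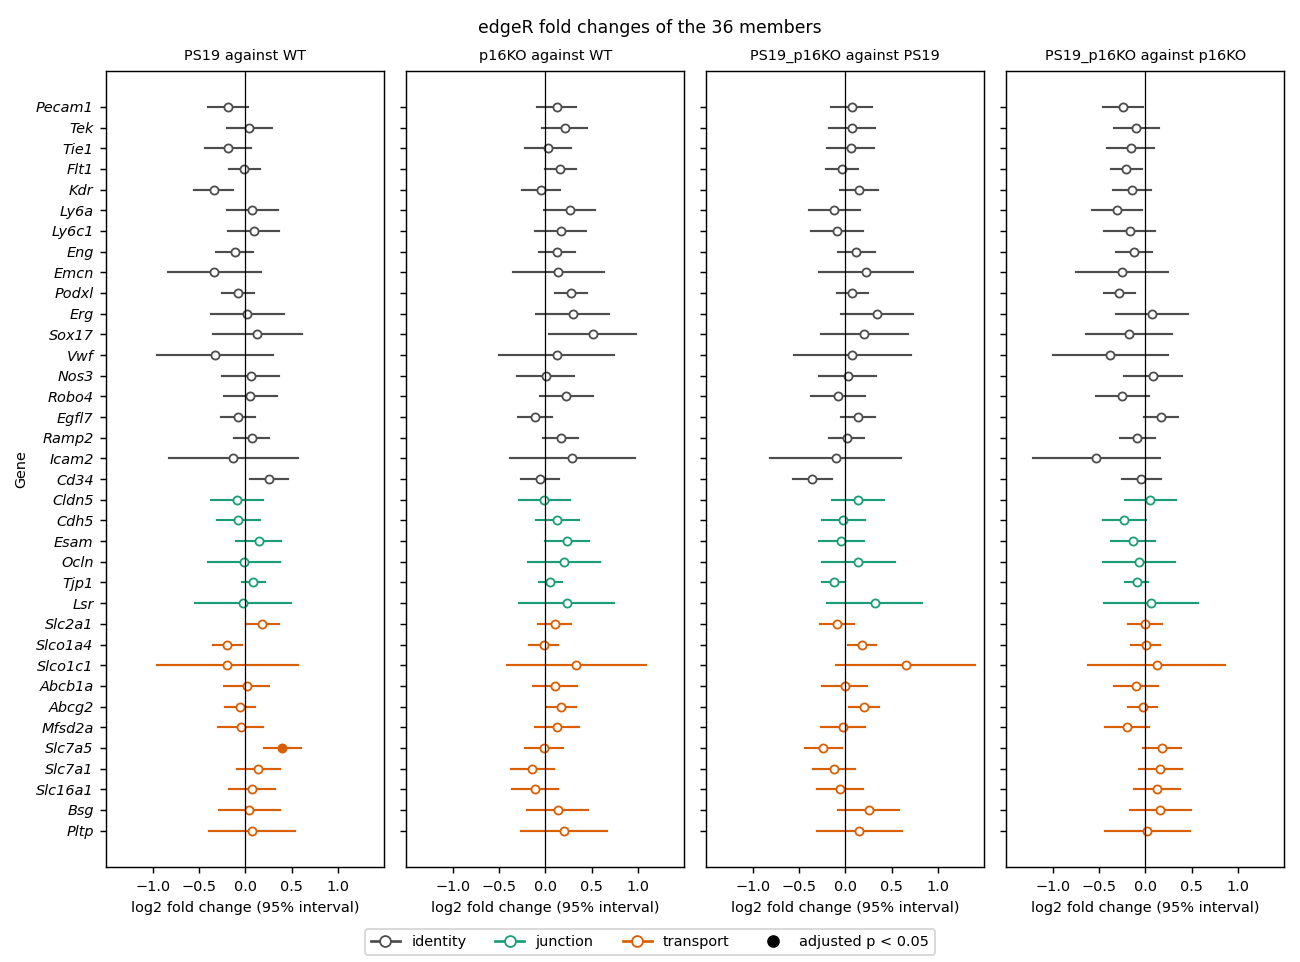
Log2 fold changes of the 36 genes in the 4 pairwise comparisons, with 95% intervals from edgeR's quasi-likelihood test on 4 against 4 libraries. Filled points have an adjusted p under 0.05: Slc7a5 in PS19 against WT is the only one, at 0.40.

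The identity, junction and transport genes were set side by side by their medians. In PS19 against WT the median log2 fold change was -0.01 for identity, -0.02 for junction and 0.04 for transport genes, beside -0.01 over all genes tested. In p16KO against WT it was 0.16, 0.16 and 0.10, beside 0.00 over all genes. There, 16 of 19 identity, 5 of 6 junction and 7 of 11 transport genes had a positive fold change, none of them called.

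In PS19_p16KO against PS19 the medians were 0.07 for identity, 0.06 for junction and -0.01 for transport genes. In PS19_p16KO against p16KO they were -0.17, -0.08 and 0.02, with a negative fold change in 16 of 19 identity, 4 of 6 junction and 4 of 11 transport genes. PS19 against WT and PS19_p16KO against p16KO share no library, while p16KO against WT and PS19_p16KO against p16KO share the p16KO libraries. When the 3 libraries that stood apart in choroid plexus RNA were left out, the junction median was 0.08 in p16KO against WT, -0.04 in PS19_p16KO against PS19 and -0.15 in PS19_p16KO against p16KO. The transport median was then 0.08, 0.01 and -0.03, and the identity median 0.18, 0.07 and -0.20, in the same order.

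The medians were also computed without each library in turn. For identity genes they ran from 0.12 without p16KO library 3 to 0.21 without WT library 3 in p16KO against WT, and from -0.22 to -0.13 in PS19_p16KO against p16KO. The identity median in PS19_p16KO against PS19 was 0.00 without PS19_p16KO library 1 and was 0.11 without library 4, and in PS19 against WT it ran from -0.08 without PS19 library 2 to 0.04 without WT library 3.

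Junction and transport medians rested more on single libraries. In p16KO against WT, the junction median ran from 0.08 without p16KO library 4 to 0.22 without p16KO library 1, and the transport median from 0.03 without p16KO library 4 to 0.16 without WT library 1. In PS19_p16KO against p16KO, the junction median ran from -0.17 without PS19_p16KO library 3 to -0.03 without library 4, and the transport median from -0.04 without PS19_p16KO library 3 to 0.12 without p16KO library 4. In the other 2 comparisons both medians took either sign.

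Averaged over tau genotype, the p16 knockout had a median log2 fold change of 0.08 over the 36 genes, beside 0.00 over all genes tested. The fold change was positive in 31 of the 36 genes, among them 18 of the 19 identity genes, Cd34 being the exception, and 49.2% of all genes tested were positive. Without the 3 libraries it was positive in 29. None of these genes was called.

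By library, the median log2 ratio of the identity genes to their mean over all 16 libraries was 0.08, 0.11, 0.22 and 0.14 in p16KO libraries 1 to 4. It was 0.04, -0.19, 0.08 and -0.09 in WT and -0.11, 0.02, -0.12 and -0.19 in PS19. In PS19_p16KO it was 0.09, -0.12, -0.02 and -0.19. WT library 3 and PS19_p16KO library 1 thus reached the range of the p16KO libraries, while the other libraries lay below it. Within groups, single libraries lay at the end of the range for many genes. PS19_p16KO library 1 was the highest of its group for 20 of the 36 genes and library 4 the lowest for 20, and PS19 library 2 was the highest for 20. The share over all genes tested was not computed, so these counts may not be particular to the 36.

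**Figure D3:**
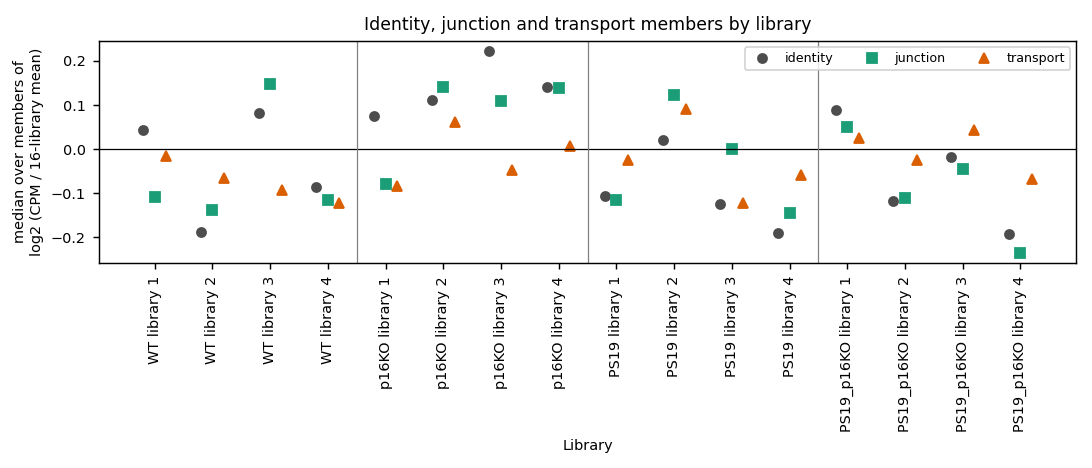
Median log2 ratio of CPM to the 16-library mean for identity, junction and transport genes, one point per library. For identity genes all 4 p16KO libraries are above zero, from 0.08 to 0.22, and overlap with WT and PS19_p16KO libraries.

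Mural cells and fibroblasts of the vessel wall and meninges share the vessels with endothelium. No gene of 15 mural and 14 fibroblast markers was called in any of the 7 comparisons by edgeR, DESeq2 or limma-voom. In p16KO against WT the median log2 fold change was 0.20 for mural and 0.33 for fibroblast genes, and 5 mural and 0 fibroblast genes had an unadjusted p under 0.05, beside 3.99% of all genes tested. In PS19_p16KO against p16KO the medians were -0.29 and -0.75, with 4 and 0 such genes, beside 3.65%. Summed mural levels were 160 to 230 CPM in WT, 182 to 260 in p16KO, 171 to 199 in PS19 and 157 to 182 in PS19_p16KO. Summed fibroblast levels were 159 to 303, 186 to 425, 159 to 196 and 143 to 437 CPM in the same order. The 425 and 437 CPM were in p16KO library 4 and PS19_p16KO library 3, the libraries richest in choroid plexus RNA. The rest of those groups had 186 to 333 and 143 to 177 CPM. The fibroblast medians above include these libraries. Pdgfra and Igf2 were the highest genes of that list, averaging 68.0 and 62.7 CPM, so the fibroblast sums lean on them. Which cells made the RNA of either list was not tested. No marker of either list was at 0 in any library except the fibroblast gene Slc47a1 in 1. Of these lists, 1 mural and 2 fibroblast genes had such a p in PS19 against WT, beside 9.57%. Their part in the identity gene medians was not tested.

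Among identity genes, Kdr had the smallest p in PS19 against WT, Cd34 in PS19_p16KO against PS19 and Podxl in the other 2 pairwise comparisons. Kdr, which encodes VEGF receptor 2, the main signalling receptor for VEGF-A, lies on the minus strand of chromosome 5 (GRCm38 chr5:75932827-75978458). Cd34, which encodes a sialomucin of endothelial and haematopoietic precursor cells, lies on the plus strand of chromosome 1 (chr1:194938819-194961279). Their promoters are shown because these genes had opposite signs in PS19 against WT, with that of Cldn5, the highest junction gene per kilobase, on the plus strand of chromosome 16 (gene chr16:18776847-18778262). Each is the 250 bases before the RefSeq transcription start in GRCm38.p6, on the gene's strand, 5′ to 3′. Capitals mark the searched motifs: GGGCGG, the GC box, in Kdr and Cldn5, and CAGGAAG, an ETS-type motif, in Cd34, each in either strand. The windows are chr5:75978456-75978705 for Kdr, chr1:194938571-194938820 for Cd34 and chr16:18776597-18776846 for Cldn5.
Kdr: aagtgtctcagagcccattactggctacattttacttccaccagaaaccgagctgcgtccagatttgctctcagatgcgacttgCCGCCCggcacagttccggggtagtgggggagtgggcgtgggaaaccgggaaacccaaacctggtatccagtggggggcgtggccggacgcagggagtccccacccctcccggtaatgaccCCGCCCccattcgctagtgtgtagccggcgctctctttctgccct
Cd34: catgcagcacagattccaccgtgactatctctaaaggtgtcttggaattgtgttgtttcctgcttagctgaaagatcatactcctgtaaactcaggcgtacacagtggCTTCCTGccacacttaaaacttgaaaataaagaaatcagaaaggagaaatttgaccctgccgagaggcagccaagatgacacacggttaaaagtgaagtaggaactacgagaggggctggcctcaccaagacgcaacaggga
Cldn5: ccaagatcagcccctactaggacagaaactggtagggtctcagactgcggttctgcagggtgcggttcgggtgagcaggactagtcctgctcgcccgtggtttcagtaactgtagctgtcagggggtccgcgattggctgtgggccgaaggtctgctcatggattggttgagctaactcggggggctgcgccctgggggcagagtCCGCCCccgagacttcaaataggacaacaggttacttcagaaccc

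Kdr held 2 matches to the GC box, Cldn5 1, and Cd34 1 match to CAGGAAG. RefSeq windows were found for 24 of the 36 genes. They had 33 windows in all, since some have several annotated starts. CAGGAAG, on either strand, was in 8 of the 33 (of Abcg2, Cd34, Egfl7, Emcn, Erg and Robo4) and in 10.8% of the 32851 windows of all genes. The GC box was in 15 of the 33 and in 32.7% of all windows. CTTTGAT, a motif of the TCF and LEF factors of Wnt signalling, was in 2 of the 33 (of Egfl7 and Slc7a1) and in 3.21% of all windows. No printed match overlaps another. Windows of 1 gene can overlap, and the matches are descriptions of sequence.

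Kdr had 18.9, 15.9, 21.4 and 18.4 CPM in WT libraries and 12.6, 17.4, 14.96 and 14.0 in PS19 libraries. It had 17.1, 17.7, 17.4 and 20.01 CPM in p16KO and 17.0, 15.5, 17.9 and 14.6 in PS19_p16KO libraries. PS19 libraries 1, 3 and 4 lay below every WT library, and PS19 library 2 overlapped them. The log2 fold change in PS19 against WT was -0.34 ± 0.10 (SE, n = 4 and 4, 95% interval -0.55 to -0.13), with an edgeR adjusted p of 0.108. For the averaged transgene it was -0.24 with an edgeR adjusted p of 0.179.

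The other VEGF receptor gene of the set, Flt1, which encodes the decoy receptor VEGFR1, averaged 53.1 ± 2.94 CPM in WT, 59.5 ± 4.81 in p16KO, 52.9 ± 6.49 in PS19 and 51.2 ± 4.65 in PS19_p16KO (SD, n = 4). Its log2 fold change in PS19 against WT was -0.01, with an interval from -0.18 to 0.16. The angiopoietin receptor gene Tek and its partner Tie1 had fold changes of 0.04 and -0.18 in the same comparison.

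Cd34 had 36.6, 39.1, 37.0 and 43.1 CPM in WT and 53.9, 47.0, 41.4 and 43.8 in PS19 libraries. In PS19_p16KO libraries it had 36.2, 34.2, 33.0 and 41.2 CPM, and in p16KO libraries 38.7, 39.8, 40.9 and 30.5. Every PS19_p16KO library lay below every PS19 library, while PS19 and WT overlapped. Genes without overlap made up 4.07% of all genes tested in that comparison and numbered 2 of the 36, Cd34 and Abcg2.

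The log2 fold change of Cd34 in PS19_p16KO against PS19 was -0.35 ± 0.10 (95% interval -0.56 to -0.15), with an edgeR adjusted p of 0.114. DESeq2 placed it just under the threshold, at an adjusted p of 0.05 after rounding, and over all alternatives the adjusted p ran from there to 0.409. In PS19 against WT it was 0.25 (0.05 to 0.46, edgeR adjusted p 0.343), and this comparison shares the PS19 libraries with the former. PS19 library 1, highest for Cd34, was also highest for the summed microglial and macrophage genes at 1128 CPM, while PS19 library 3, lowest of its group for both, had 41.4 CPM of Cd34 and 534 CPM of those genes. The part of these cells in the Cd34 level was not tested.

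Podxl, which encodes the sialomucin podocalyxin of the luminal endothelial surface, had 30.7, 25.5, 28.0 and 30.6 CPM in WT and 31.9, 35.4, 36.2 and 35.8 in p16KO libraries. In PS19 it had 26.6, 29.8, 28.1 and 24.2 CPM, and in PS19_p16KO 32.5, 28.8, 26.4 and 26.1. All 4 p16KO libraries lay above all 4 WT libraries. It was the only one of the 36 genes without overlap in that comparison, where 2.99% of all genes tested had none. The log2 fold change was 0.28 ± 0.08 (0.11 to 0.45) with an edgeR adjusted p of 0.695. In PS19_p16KO against p16KO it was -0.28 ± 0.08 with an edgeR adjusted p of 0.999.

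Sox17, an endothelial transcription factor gene named after its values were seen, had the largest positive fold change in p16KO against WT. It had 3.56, 3.45, 3.97 and 2.60 CPM in WT and 4.86, 6.42, 5.18 and 2.93 in p16KO. The p16KO library 4, which lay within the WT range, is one of the 3 rich in choroid plexus RNA. The log2 fold change was 0.51 ± 0.23 (0.04 to 0.98, edgeR adjusted p 0.999), and without those 3 libraries 0.70 ± 0.22 with an edgeR adjusted p of 0.497.

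Ly6a, which encodes the surface antigen Sca-1, had 8.96, 8.17, 10 and 8.67 CPM in p16KO and 7.96, 6.34, 7.77 and 6.71 in PS19_p16KO libraries. The groups did not overlap, and Ly6a was the only one of the 36 genes of which this held, against 2.64% of all genes tested. Its log2 fold change was -0.31 ± 0.13 (-0.58 to -0.03, edgeR adjusted p 0.999). Its neighbour Ly6c1 had 13.3, 13.4, 15.6 and 10.9 CPM in WT and 14.5, 16.3, 14.96 and 11.1 in PS19, which overlap, and a fold change of 0.09 ± 0.13. In p16KO Ly6c1 had 14.3, 15.98, 16.9 and 12.8 CPM and in PS19_p16KO 15.6, 12.8, 14.0 and 10.5. Both belong to a family of close copies on chromosome 15, so their counts are uncertain.

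Vwf, the gene of von Willebrand factor, which is stored mainly in endothelium of larger vessels, varied most among the identity genes with over 5 CPM. It had 32.9, 17.3, 40.9 and 19.9 CPM in WT and 19.4, 44.0, 30.7 and 27.0 in p16KO. In PS19 it had 23.8, 18.3, 23.7 and 22.6 CPM, and in PS19_p16KO 29.7, 22.5, 19.4 and 20.8. The WT range alone covered all PS19 libraries. The fold change in PS19 against WT was -0.33 ± 0.29 with an interval from -0.96 to 0.30, so a difference of this size was not detectable here.

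None of the remaining identity genes was called. Pecam1, the gene of the endothelial adhesion molecule CD31, averaged 16.02 ± 1.45 CPM in WT, 17.5 ± 1.88 in p16KO, 14.1 ± 0.799 in PS19 and 14.7 ± 2.23 in PS19_p16KO (SD, n = 4). Its fold change for the averaged transgene was -0.21 ± 0.07 with an edgeR adjusted p of 0.301. Icam2, the gene of an endothelial adhesion molecule and the lowest by CPM, ran from 0.538 to 1.62 CPM over the 16 libraries. It had the most negative fold change of the 36 genes in PS19_p16KO against p16KO, -0.53 ± 0.33, with an interval from -1.21 to 0.16. Erg, the gene of an ETS transcription factor that maintains endothelial identity, had 3.44, 2.77, 3.28 and 3.80 CPM in PS19 and 4.83, 4.19, 3.32 and 4.38 in PS19_p16KO. In WT it had 4.09, 2.91, 3.86 and 2.23 CPM, and in p16KO 4.59, 3.54, 3.85 and 4.08. PS19_p16KO libraries 1, 2 and 4 lay above every PS19 library, and library 3 overlapped them. The fold change of Erg in PS19_p16KO against PS19, the largest of the identity genes there, was 0.34 ± 0.19 (-0.05 to 0.73, edgeR adjusted p 0.66). Erg and Icam2 were singled out after their values were seen. Eng, Nos3, Egfl7 and Ramp2 share exon sequence with the neighbouring genes Fpgs, Atg9b, Agpat2 and Vps25, and without a known strand setting reads of Eng, Nos3 and Egfl7 cannot be told from those of the opposite strand.

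Junction genes gave no call in any comparison. Cldn5 had 28.0, 30.3, 37.6 and 28.3 CPM in WT and 23.7, 36.1, 31.7 and 25.5 in PS19 libraries. In p16KO it had 29.0, 32.7, 34.8 and 27.2 CPM, and in PS19_p16KO 37.2, 33.3, 29.8 and 27.2. All 4 groups overlapped. The fold change in PS19 against WT was -0.09 ± 0.13 (-0.37 to 0.19), and it was 0.010 when WT library 3, the highest, was left out.

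Tjp1 was the least variable junction gene, with 98.1, 98.4, 102 and 99.8 CPM in WT and 99.7, 117, 102 and 106 in PS19. It had 96.5, 104, 107 and 107 CPM in p16KO and 102, 101, 85.0 and 98.9 in PS19_p16KO. The groups overlapped, and the lowest of all libraries was PS19_p16KO library 3, one of the libraries rich in choroid plexus RNA. The fold change was 0.09 ± 0.06 in PS19 against WT (edgeR adjusted p 0.744) and -0.13 ± 0.06 in PS19_p16KO against PS19 (0.583). The interaction was -0.18 ± 0.09 (edgeR adjusted p 0.91), and without the 3 libraries it was -0.08.

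Cdh5, the gene of the adherens junction protein VE-cadherin, had 11.3, 13.0, 12.1 and 12.8 CPM in p16KO and 12.2, 9.65, 10.5 and 9.36 in PS19_p16KO libraries. It had 10.5, 9.99, 13.0 and 11.2 CPM in WT and 11.7, 10.7, 11.2 and 8.95 in PS19. PS19_p16KO libraries 2, 3 and 4 lay below every p16KO library, and library 1 overlapped them. The fold change was -0.23 ± 0.11 (-0.46 to 0.00, edgeR adjusted p 0.999).

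Esam, the gene of an endothelial cell-selective adhesion molecule, had 7.60, 8.07, 9.42 and 7.58 CPM in WT and 8.78, 9.97, 10.9 and 8.88 in p16KO. It had 8.38, 10.8, 8.39 and 8.63 CPM in PS19 and 9.38, 9.23, 8.63 and 7.63 in PS19_p16KO. WT library 3 reached into the p16KO range, and the other 3 WT libraries lay below it. The fold change in p16KO against WT was 0.23 ± 0.12 (-0.01 to 0.47, edgeR adjusted p 0.999).

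Ocln, the gene of the tight junction protein occludin, and Lsr, the gene of the tricellular junction protein angulin-1, were named after their values were seen. Ocln was highest in p16KO library 4 at 19.96 CPM and PS19_p16KO library 3 at 21.4, against 10.7 to 15.5 in the other 14 libraries. Lsr was highest in the same 2 libraries, at 4.13 and 6.70 CPM, against 2.33 to 3.92 elsewhere. Both are those richest in choroid plexus RNA. In PS19_p16KO against PS19 the fold changes were 0.14 for Ocln and 0.32 for Lsr with all libraries, and -0.09 and -0.09 without the 3 libraries. Lsr also shares exon sequence with Gm4673 on the opposite strand, whose mean count of 129 exceeded the 66.0 of Lsr.

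Slc7a5 was the gene that passed the test. It encodes LAT1, which carries large neutral amino acids, L-DOPA and thyroid hormone across the barrier, and lies on the minus strand of chromosome 8 (GRCm38 chr8:121881150-121907694). It had 66.9, 63.3, 63.8 and 76.7 CPM in WT and 87.3, 96.7, 102 and 72.5 in PS19 libraries. In p16KO it had 67.4, 68.1, 70.2 and 62.8 CPM, and in PS19_p16KO 76.3, 76.1, 64.8 and 85.0. PS19 libraries 1, 2 and 3 lay above every WT library, and PS19 library 4 fell within the WT range.

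In PS19 against WT, Slc7a5 rose by 0.40 ± 0.10 on the log2 scale (95% interval 0.20 to 0.60), or 1.32-fold, with an edgeR adjusted p of 0.0419. The call lay close to the threshold: it was lost with RLE scaling (edgeR adjusted p 0.0536), without the 3 libraries high in choroid plexus RNA (0.0527), and on leaving out any 1 of 12 libraries. Without WT library 1, 2 or 3 the edgeR adjusted p was 0.113, 0.164 or 0.138, and without PS19 library 1, 2 or 3 it was 0.135, 0.191 or 0.109. Without p16KO library 1, 2, 3 or 4 it was 0.0714, 0.0594, 0.0562 or 0.063 in edgeR, and without PS19_p16KO library 1 or 2 it was 0.0722 or 0.0597. Over all alternatives the log2 fold change stayed between 0.33 and 0.48.

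Within PS19, the order of the libraries differed between Slc7a5 and the microglial genes. Library 3 had the highest Slc7a5 level, 102 CPM, and the lowest summed microglial and macrophage level, 534 CPM. The part of other cells that make Slc7a5 was not tested.

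In PS19_p16KO against PS19 the fold change of Slc7a5 was -0.24 ± 0.10 (-0.44 to -0.03, edgeR adjusted p 0.438). In PS19_p16KO against p16KO it was 0.18 ± 0.10 (-0.02 to 0.38, edgeR adjusted p 0.999). The interaction was -0.22 ± 0.14 with an interval from -0.51 to 0.07 and an edgeR adjusted p of 0.999, so a difference between the transgene effects with and without p16 was not detected. Averaged over p16 genotype, the transgene effect was 0.29 ± 0.07 with an edgeR adjusted p of 0.0762. Slc3a2, the heavy chain that pairs with LAT1, was among 33 further transport genes and was not called in any comparison.

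Slc2a1, named after its values were seen, had 116, 77.0, 93.0 and 85.1 CPM in WT and 101, 113, 98.9 and 109 in PS19. It had 92.5, 104, 107 and 94.7 CPM in p16KO and 99.7, 99.5, 99.4 and 96.3 in PS19_p16KO. Every PS19 library lay above WT libraries 2, 3 and 4 and below WT library 1, one of the 3 rich in choroid plexus RNA. Against the mean of the other 3 libraries of the group, Slc2a1 stood at 1.36 times in WT library 1. In the other libraries rich in that RNA the ratio was 0.936 (p16KO library 4) and 1.01 (PS19_p16KO library 3). The fold change in PS19 against WT was 0.18 ± 0.09 (0.00 to 0.37, edgeR adjusted p 0.514). Without WT library 1 it was 0.29 with an edgeR adjusted p of 0.0256, and without all 3 libraries it was 0.30 with an edgeR adjusted p of 0.0272. The fold change in p16KO against WT was then 0.24 (edgeR adjusted p 0.441), and the interaction was -0.32 (edgeR adjusted p 0.354). The part of cells other than endothelium in the Slc2a1 level was not tested.

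Abcg2, the gene of the efflux pump BCRP, had the smallest spread within groups of the 36 genes, with a median coefficient of variation of 3.89%. It had 13.0, 13.1, 13.6 and 12.6 CPM in WT and 12.4, 13.3, 12.6 and 12.2 in PS19. In p16KO it had 14.96, 16.4, 14.5 and 13.4 CPM, and in PS19_p16KO 15.1, 13.9, 14.2 and 14.5. Every PS19_p16KO library lay above every PS19 library, and p16KO library 4 alone reached into the WT range. The fold change was 0.17 ± 0.08 in p16KO against WT (edgeR adjusted p 0.999) and 0.20 ± 0.08 in PS19_p16KO against PS19 (0.04 to 0.36, edgeR adjusted p 0.364). Averaged over tau genotype it was 0.19 ± 0.05 with an edgeR adjusted p of 0.218. The other efflux pump gene, Abcb1a, which encodes P-glycoprotein and has the close copy Abcb1b, had fold changes of 0.10 and -0.01 in those 2 comparisons.

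**Figure D4:**
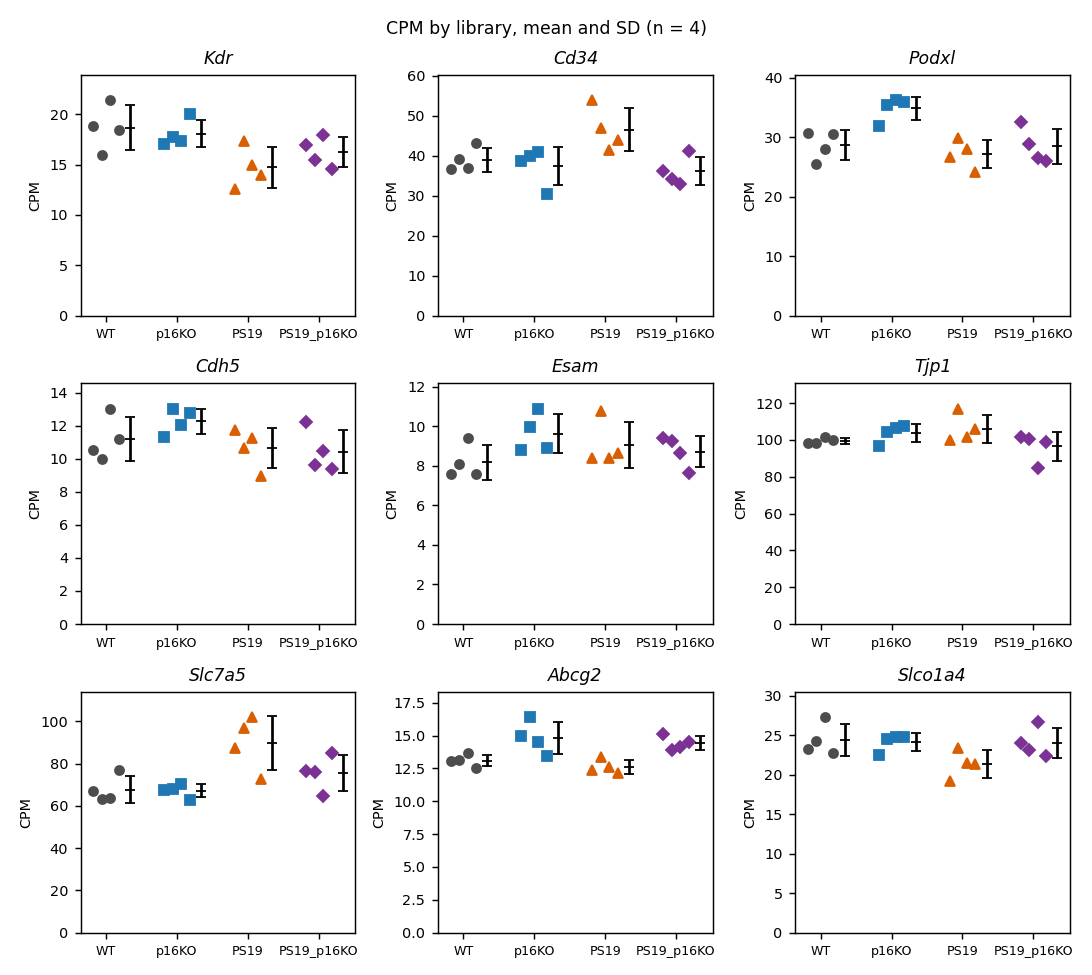
CPM of 9 genes by library in the 4 groups, with the mean and SD (n = 4) beside each. Slc7a5 is above the WT libraries in 3 of 4 PS19 libraries, Podxl is above WT in all 4 p16KO libraries, and Cd34 is lower in all 4 PS19_p16KO than in all 4 PS19 libraries.

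The organic anion transporter gene Slco1a4 had 23.2, 24.2, 27.2 and 22.7 CPM in WT and 19.2, 23.4, 21.5 and 21.3 in PS19. In p16KO it had 22.4, 24.5, 24.7 and 24.8 CPM, and in PS19_p16KO 24.0, 23.1, 26.7 and 22.4. PS19 libraries 1, 3 and 4 lay below every WT library. The fold change was -0.19 ± 0.07 in PS19 against WT (edgeR adjusted p 0.329) and 0.18 ± 0.07 in PS19_p16KO against PS19 (edgeR adjusted p 0.451), comparisons that share the PS19 libraries. The interaction was 0.20 ± 0.10 (edgeR adjusted p 0.995).

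Slco1c1, the thyroxine transporter gene of barrier endothelium, astrocytes and choroid plexus, was named after its values were seen. It lies on chromosome 6 (GRCm38 chr6:141524368-141570177). It had 39.6, 39.5, 40.0 and 83.0 CPM in p16KO and 40.9, 36.8, 104 and 37.3 in PS19_p16KO libraries. It had 47.6, 36.4, 34.1 and 41.4 CPM in WT and 32.6, 37.6, 36.1 and 33.7 in PS19. The highest library in each of WT, p16KO and PS19_p16KO was the one rich in choroid plexus RNA. In PS19_p16KO against PS19 the fold change was 0.65 ± 0.35 (-0.10 to 1.40, edgeR adjusted p 0.663), and without the 3 libraries 0.15 ± 0.07 with an edgeR adjusted p of 0.555.

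Bsg and Pltp were likewise highest in PS19_p16KO library 3. Bsg had 364, 322, 343 and 338 CPM in WT, 357, 329, 361 and 458 in p16KO, 368, 356, 342 and 346 in PS19 and 367, 342, 613 and 354 in PS19_p16KO. The groups overlapped, with p16KO library 4 and PS19_p16KO library 3 above the rest. The fold change of Bsg was 0.04 ± 0.15 in PS19 against WT and 0.25 ± 0.15 in PS19_p16KO against PS19, and the latter was 0.03 without the 3 libraries. Pltp had 97.9 CPM in PS19_p16KO library 3 and 50.7 to 57.6 in the other 3 of that group, and its exons overlap those of Ctsa on the opposite strand. In PS19_p16KO library 3, 6 of the 36 genes stood at more than 1.5 times the mean of the other 3 libraries of the group: Slco1c1, Lsr, Emcn, Pltp, Ocln and Bsg. The endothelial junction gene Cldn5 was not among them.

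**Figure D5:**
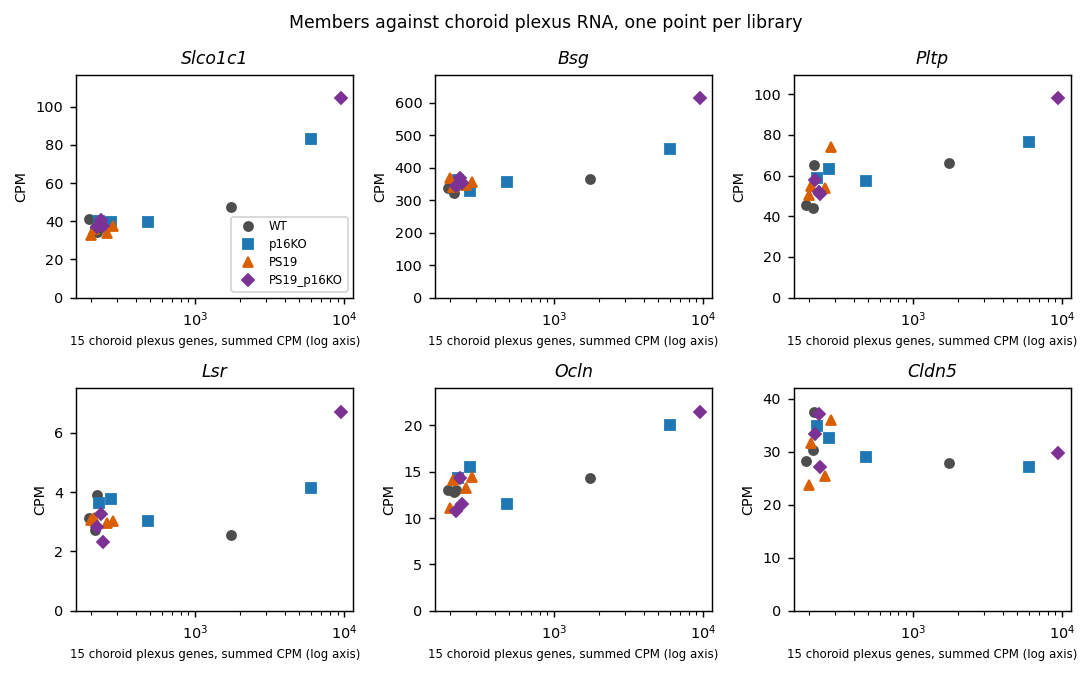
CPM of 6 junction and transport genes in each library against the summed CPM of 15 choroid plexus genes on a log axis. Slco1c1, Bsg, Pltp, Lsr and Ocln are highest in PS19_p16KO library 3 (9465 CPM of choroid plexus genes), and Cldn5 is not.

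The remaining transport genes gave no call. Mfsd2a, the gene of the docosahexaenoic acid lipid carrier that keeps vesicular traffic low, averaged 13.2 ± 2.57 CPM in WT, 14.4 ± 1.09 in p16KO, 12.8 ± 1.09 in PS19 and 12.5 ± 0.955 in PS19_p16KO (SD, n = 4). Slc7a1, a cationic amino acid transporter gene, and Slc16a1, the gene of the monocarboxylate transporter MCT1, had fold changes of 0.14 and 0.07 in PS19 against WT, with intervals from -0.09 to 0.37 and -0.18 to 0.32.

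Further genes of the same pathways were counted from fixed lists. Of 17 VEGF, angiopoietin and related signalling genes, 15 were tested and 1 was called, Angpt1, which was lower in PS19_p16KO against PS19. Of 22 Wnt and barrier induction genes, 18 further junction genes and 19 arterial, capillary and venous zonation genes, edgeR, DESeq2 and limma-voom called none in any of the 7 comparisons. At an unadjusted p under 0.05 these 3 lists held 1, 2 and 2 genes in PS19 against WT (9.57% of all genes tested), 3, 3 and 2 in p16KO against WT (3.99%), 1, 1 and 3 in PS19_p16KO against PS19 (8.59%) and 1, 0 and 1 in PS19_p16KO against p16KO (3.65%). Of 33 further barrier transport genes, edgeR called 2 higher in PS19 against WT, Slco2b1 and Abca1, and 1 lower in PS19_p16KO against PS19, again Abca1. Over all genes tested, edgeR called 1.61% in PS19 against WT and 0.825% in PS19_p16KO against PS19. Of 10 transcytosis genes Ehd4 was higher in PS19 against WT, where DESeq2 called 1 gene of that list and limma-voom none. Among 15 endothelial activation genes, of which 13 were tested, Cd9 was higher in PS19 against WT. There DESeq2 called 4 of that list and limma-voom 1. DESeq2 also called 1 activation gene for the averaged transgene and 1 VEGF and angiopoietin gene in PS19 against WT. For the interaction it called 1 VEGF and angiopoietin gene and 2 of the further transport genes. Of these further calls limma-voom made none. Over all 16372 genes tested, DESeq2 called 390 in PS19 against WT, 179 for the averaged transgene and 86 for the interaction. limma-voom called 207 in PS19 against WT.

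Angpt1 encodes angiopoietin-1, the ligand of the receptor encoded by Tek. It had 13.4, 12.3, 9.04 and 9.54 CPM in PS19 and 7.16, 6.03, 8.52 and 5.84 in PS19_p16KO libraries, which did not overlap. It had 8.85, 6.68, 7.41 and 8.01 CPM in WT and 8.87, 8.43, 9.08 and 8.10 in p16KO. Angpt1 fell by 0.68 ± 0.14 on the log2 scale (edgeR adjusted p 0.0234). The call was lost without PS19 library 1 or 2 (edgeR adjusted p 0.12 and 0.106) and without PS19_p16KO library 1, 2 or 4 (edgeR adjusted p 0.0625, 0.0917 and 0.0897).

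Slco2b1 encodes an organic anion transporter that microglia also make. It had 14.0, 13.8, 13.8 and 14.1 CPM in WT and 22.3, 19.8, 15.5 and 18.5 in PS19. It had 17.8, 18.1, 16.7 and 17.5 CPM in p16KO and 16.7, 15.2, 16.7 and 15.1 in PS19_p16KO. All libraries of the other 3 groups, not only of PS19, lay above all WT libraries. Slco2b1 rose by 0.45 ± 0.09 in PS19 against WT (edgeR adjusted p 0.00813).

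Abca1, a cholesterol efflux pump gene also made by glia, had 50.7, 48.0, 56.0 and 45.1 CPM in WT and 99.1, 88.0, 59.2 and 77.3 in PS19. In p16KO Abca1 had 51.4, 56.8, 47.3 and 66.0 CPM, and in PS19_p16KO 49.2, 44.7, 55.1 and 44.8. The PS19 libraries lay above all WT and PS19_p16KO libraries, and p16KO library 4 lay above PS19 library 3. Abca1 rose by 0.69 ± 0.13 in PS19 against WT (edgeR adjusted p 0.0128) and fell by 0.73 ± 0.13 in PS19_p16KO against PS19 (edgeR adjusted p 0.0175). The rise of Abca1 was lost without WT library 2 or 4 or PS19 library 2 (edgeR adjusted p 0.0592, 0.0551 and 0.0576), and its fall without PS19 library 2 or PS19_p16KO library 1, 2 or 4 (0.0891, 0.0616, 0.0759 and 0.0708).

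Ehd4, the gene of an endocytic membrane-shaping ATPase, had 10.9, 10.3, 9.52 and 8.70 CPM in WT and 18.2, 15.04, 12.6 and 11.9 in PS19, without overlap. It had 10.3, 13.1, 11.9 and 13.9 CPM in p16KO and 11.8, 9.65, 12.8 and 9.68 in PS19_p16KO, which overlapped both. It rose by 0.54 ± 0.13 (edgeR adjusted p 0.0384), and leaving out 1 of 8 single libraries ended the call, with edgeR adjusted p values from 0.0511 to 0.23. These were WT libraries 2, 3 and 4, p16KO libraries 2 and 3, PS19 libraries 1 and 2 and PS19_p16KO library 1. limma-voom did not call Ehd4.

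Cd9, a tetraspanin gene also made by microglia and oligodendrocytes, had 37.9, 28.3, 39.5 and 30.1 CPM in WT and 91.1, 89.2, 48.1 and 60.3 in PS19, without overlap. It had 40.6, 38.1, 34.9 and 42.3 CPM in p16KO and 40.0, 35.7, 63.9 and 38.3 in PS19_p16KO, where library 3, high in choroid plexus RNA, lay within the PS19 range. It rose by 1.08 ± 0.22 (edgeR adjusted p 0.0237). The call was lost without WT library 2 or 4 (edgeR adjusted p 0.0977 and 0.0954) or PS19 library 1 or 2 (0.0948 and 0.0958).

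In PS19 the libraries highest for Angpt1, Slco2b1, Abca1, Ehd4 and Cd9 were 1 and 2, which also had the highest summed microglial and macrophage levels, 1128 and 895 CPM, and the highest summed astrocyte levels, 9071 and 9228 CPM, against 6490 and 7467 CPM in libraries 3 and 4. The part of those cells in these levels was not tested.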

How the data were processed

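The deposited values are raw counts per gene from hippocampal RNA. The submitters' processing notes name GRCm38 and, with no role or order, DESeq2, featureCounts, Subread 1.5.2, STAR 2.5.2b and Trimmomatic 0.36. With annotation release and strandedness not given in the sources used here, overlapping, antisense and closely copied genes can share reads. The 92 ERCC spike-in rows, 0.574% to 1.06% of counts, entered neither library sizes nor tests. Symbols and exon lengths came from GENCODE M21 on the same build.

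CPM was computed without TMM factors. The test was edgeR 4.0.16 in R 4.3.3 (filterByExpr with a minimum count of 10, TMM, robust quasi-likelihood, 1 mean per group). Its calculation was tested on simulated data. Standard errors are from the F statistic. No library pair of a group agreed within sampling noise (chi-square over degrees of freedom 4.82 to 26.3). Depth gives a precision set by the spread between libraries, shown by the intervals. Alternatives were RLE scaling, DESeq2 1.42.0, voom with quality weights in limma 3.58.1, other filters, a replicate block, the library-name suffix, only the groups compared, no robust dispersion and leaving out libraries.

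The genes and lists were chosen with earlier results of these data known. Values in every library are given for called genes, for the smallest p of each role in the 4 pairwise comparisons and the interaction, for the highest gene of each role per kilobase and for up to 4 called genes of each further list; other genes were named after their values were seen. A gene that this rule names in a further list is not reported here.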

Additional observations from a re-analysis of the deposited data

Results flagged for a closer look

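Of 144 sets of 4 libraries, 1 per gene and group, 12 held a library far from the other 3 by Dixon's test at 95%, where chance flags about 5% of sets. Of these, 5 were in PS19_p16KO library 3. Bsg had 613 CPM there against 342 to 367 in the other 3 libraries, Pltp 97.9 against 50.7 to 57.6, Slco1c1 104 against 36.8 to 40.9 and Emcn 3.86 against 2.0 to 2.1. Tjp1 was the lowest there, with 85.0 CPM against 98.9 to 102. In p16KO library 4, Slco1c1 had 83.0 CPM against 39.5 to 40.0 and Eng 20.1 against 16.3 to 16.8. These are the 2 libraries with the most choroid plexus RNA, whose part in each value was not tested.

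The other 5 were spread over other libraries. Ocln had 14.3 CPM in WT library 1, which is also rich in choroid plexus RNA, against 12.8 to 13.0 in the other WT libraries. Nos3 was lowest in PS19 library 1 at 7.26 CPM against 8.1 to 8.2, and Esam was highest in PS19 library 2 at 10.8 against 8.38 to 8.63. Slc2a1 was lowest in PS19_p16KO library 4 at 96.3 CPM against 99.4 to 99.7, and Slco1a4 was lowest in p16KO library 1 at 22.4 against 24.5 to 24.8. No gene of the 36 passed the test of the interaction.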

How the results depend on the processing

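In PS19 against WT the count of genes called among the 36 was 1. It was 0 with RLE scaling, with limma-voom, with no filter, with the library-name suffix as a factor and with only the compared groups in the fit. It stayed at 1 with DESeq2, with a filter of CPM above 1 in 4 libraries and with no robust dispersion. Leaving out each library in turn gave 0 to 1. Without WT library 1, and without the 3 libraries high in choroid plexus RNA, the gene called was Slc2a1 and not Slc7a5. In PS19_p16KO against PS19, DESeq2 called 1, Cd34. For the averaged transgene DESeq2 called 1, Slc7a5, and leaving out each library in turn gave 0 to 1. The fold change of Cldn5 in PS19 against WT reversed to 0.010 without WT library 3, with -0.20 to 0.010 on leaving out each library in turn. The causes were not tested. Of the values for single genes under alternatives, 658 kept direction and side of the threshold, 63 were no longer past it, 3 newly passed it and 1 reversed.

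With the replicate number as a block, the count of genes called in PS19 against WT was 0, and Slc7a5 had a log2 fold change of 0.40 with an edgeR adjusted p of 0.117. Deviations from the group means in same-numbered libraries of different groups had correlations from -0.389 to 0.223 over 24 pairs. For different-numbered libraries they ran from -0.331 to 0.558. The highest was between p16KO library 4 and PS19_p16KO library 3, both rich in choroid plexus RNA. No pairing by number was seen, but these correlations cannot exclude a weak one. Among the further genes, the block ended the calls of Ehd4 and Cd9 in PS19 against WT and of Abca1 in PS19_p16KO against PS19 (edgeR adjusted p 0.0646, 0.0674 and 0.0504). Fitting only the compared groups, with fewer libraries to estimate the spread, ended the calls of Angpt1, Slco2b1, both of Abca1, Ehd4 and Cd9.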

Other observations

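The vessel markers did not rank libraries alike. In WT, library 3 had the highest Vwf level, 40.9 CPM, the highest summed level of 15 mural genes, 230 CPM, and the highest summed level of 14 fibroblast genes, 303 CPM. In p16KO, library 2 had the highest Vwf level, 44.0 CPM, and the highest summed mural level, 260 CPM. The fibroblast sum was instead highest in library 4, rich in choroid plexus RNA, at 425 CPM against 333 CPM in library 2. The summed level of 19 arterial, capillary and venous zonation genes was 1509 CPM in WT library 3, inside the WT range of 1486 to 1553. It was 1430 CPM in p16KO library 2, the lowest of the 16 libraries. A single gene, Spock2, averaged 1088 CPM and made up most of that sum, which therefore says little about the other zonation genes. WT library 2 had the lowest Vwf level of the 16 libraries, 17.3 CPM, and the lowest summed mural level of its group, 160 CPM. In PS19 libraries, Vwf ran from 18.3 to 23.8 CPM and the mural sum from 171 to 199 CPM, and PS19 library 2 was lowest for Vwf and highest for the mural sum. Selp and Sele, selectin genes of activated endothelium, were at 0 in 7 and 8 of the 16 libraries.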
